A study of Homo sapiens with 12 samples.

Results

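Zinc transporters and metallothioneins were examined in HK2 cells, a long-established human line derived from the kidney proximal tubule, in which FLCN was knocked down by a short hairpin RNA (shRNA). The genes were taken by symbol from the GENCODE annotation: every protein-coding gene named SLC30A or SLC39A with a number, every MT1 gene with a single letter, MT2A and MTF1. This rule gave 34 genes of the 58288 gene IDs in the count table, namely 9 metallothioneins, the transcription factor gene MTF1, 10 SLC30 exporter genes and 14 SLC39 importer genes. RNA was sequenced from 12 libraries in 4 groups of 3 biological replicates: nontarget cells (labelled shControl, with FLCN intact) and FLCN knockdown cells, each grown short-term and long-term. Short-term cells had grown for fewer than 30 passages, and long-term cells for more than 120 passages by the sample labels, whereas the study's methods set a lower limit, counted after clonal selection. All cells carried an shRNA, and all grew in DMEM with 10% fetal bovine serum, with no added metal named in the sources used here. The cells had been selected as clones, and the clone behind each library is not stated, so effects of the knockdown and of the clone cannot be told apart. The question of each comparison was how knockdown, long culture or both together moved the level of these RNAs.

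Cells keep free zinc very low. SLC39 proteins (ZIP) move zinc into the cytoplasm from outside or from organelles, SLC30 proteins (ZnT) move it out of the cytoplasm into organelles or out of the cell, and metallothioneins are small, cysteine-rich proteins that bind zinc, copper and cadmium. MTF1 senses zinc and switches on metallothionein genes and SLC30A1 through short metal response elements in their promoters. In the kidney, the proximal tubule takes up metallothionein-bound metal from the filtrate and is the main site of cadmium injury.

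Because MTF1 acts through these elements, the promoters of members with a high, a low and an absent RNA are shown. The sequences come from RefSeq (GRCh38.p14), which held a window for 26 of the 34 genes, 35 windows in all, and the 250 bases before each start were searched on both strands for the core of the element, TGCACNC or TGCGCNC. Matches are in capitals, and a match reads GNGTGCA or GNGCGCA where the element lies on the other strand. The first sequence belongs to MT1X (chr16:56682220-56682423, plus strand), the second to MT1H (chr16:56669564-56669813, plus strand) and the third to the exporter gene SLC30A1 (chr1:211579162-211579411, minus strand), each 5′ to 3′. The last 3 are 30-base stretches around the matches of MT2A nearest its start (chr16:56608485-56608514, chr16:56608519-56608548 and chr16:56608554-56608583, plus strand).
MT1X: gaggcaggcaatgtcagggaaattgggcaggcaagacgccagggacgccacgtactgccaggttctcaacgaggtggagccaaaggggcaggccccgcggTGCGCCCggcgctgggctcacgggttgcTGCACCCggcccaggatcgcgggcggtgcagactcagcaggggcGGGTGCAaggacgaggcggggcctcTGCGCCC
MT1H: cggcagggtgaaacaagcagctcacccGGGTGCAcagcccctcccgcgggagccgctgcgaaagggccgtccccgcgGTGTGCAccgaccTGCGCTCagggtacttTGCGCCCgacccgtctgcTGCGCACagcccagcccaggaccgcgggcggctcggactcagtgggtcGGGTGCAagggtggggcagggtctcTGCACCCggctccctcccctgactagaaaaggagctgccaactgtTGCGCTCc
SLC30A1: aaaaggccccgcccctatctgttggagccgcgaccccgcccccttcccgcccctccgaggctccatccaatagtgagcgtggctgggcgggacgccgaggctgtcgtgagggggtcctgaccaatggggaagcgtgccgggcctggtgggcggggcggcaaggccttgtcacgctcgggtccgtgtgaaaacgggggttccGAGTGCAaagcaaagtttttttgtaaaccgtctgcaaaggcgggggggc
MT2A, farthest of the 3: cagcgcggggcGTGTGCAggcagcgcccgg
MT2A, middle: ggcggggctttTGCACTCgtcccggctctt
MT2A, nearest the start: ctataaacactgcttgccgcgcTGCACTCc

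MT1H had 8 matches, MT2A 7, MT1X 4 and MT1B 3. Of 35116 windows in the whole table, 24.8% held at least 1 match and 0.37% held 4 or more. SLC30A1 had 1 match, 49 bases before its start, as did 18.4% of all windows, and MTF1 had none. Of the 21 transporter genes with a window, 10 had a match in at least 1 window. The number of matches did not follow the RNA level, since MT1H, with the most, had 1 count over the 12 libraries and MT2A, with 7, had the most metallothionein RNA. A match is a string of letters in these windows and not a measured binding site. MT1A, MT1E, MT1F, MT1G, MT1M, SLC39A4, SLC39A14 and SLC30A8 had no window in the table.

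The libraries held 5825779 to 8991051 counts. Levels are given in CPM, which is the count relative to the library's total after TMM scaling. One edgeR quasi-likelihood model held all 12 libraries, and its p-values for 13959 genes were adjusted together by the Benjamini-Hochberg method. A gene is said to rise or fall where this adjusted p was below 0.05. FLCN had 12.7, 16.7 and 16.5 CPM in short-term nontarget libraries against 5.95, 6.58 and 5.66 CPM after short-term knockdown, a fall of 60.1% (log2 fold change −1.33, edgeR adjusted p = 1.12e-04, SE 0.179). The long-term libraries had 9.92, 11.9 and 12.2 CPM of FLCN without and 6.70, 6.31 and 7.97 CPM with knockdown, a fall of 38.5% (log2 fold change −0.70, edgeR adjusted p = 0.00611, SE 0.178). Of the proximal tubule marker genes, LRP2 and SLC22A6 were at 0 in every library, whereas SLC5A2, GGT1 and PAX8 exceeded 1 CPM in every group. Marker lists of leukocytes, endothelium and distal nephron summed to at most 5.95 CPM in any library. Epithelial markers summed to 2158 to 3576 CPM. Fibroblast markers summed to 49.2 to 56.8 CPM in short-term and 24.6 to 36.6 CPM in long-term libraries, and their part in the results was not tested. Replicate 3 of 3 groups (short-term knockdown, long-term nontarget and long-term knockdown) deviated from its group mean in the same direction across genes, with correlations of 0.455 to 0.467 between these libraries. Counts over all 26 genes and by family are therefore also given for the 8 libraries without replicate 3.

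Of the 34 genes, 26 had enough counts to be tested: 7 metallothioneins, MTF1, 7 exporters and 11 importers. The other 8 had under 50 counts over the 12 libraries. MT1B, SLC30A8, SLC39A2 and SLC39A12 had no count in any library. MT1H and SLC30A10 (a manganese exporter) had 1 count each, SLC39A5 had 7 counts and SLC30A2 had 19 counts. For these 8 genes a change was not detectable at this depth, apart from SLC30A2. SLC30A2, a vesicular exporter best known from the mammary gland, had 5, 3 and 8 counts after short-term knockdown, none in the short-term nontarget libraries, 0, 0 and 1 in the long-term nontarget and 1, 0 and 1 in the long-term knockdown libraries. Against a floor of 3 counts over the group, its level was at least 5.3-fold higher after short-term knockdown than in short-term nontarget cells. This bound takes the knockdown counts as exact and leaves out the spread between replicates.

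Levels were also divided by the length of the union of annotated exons. That length can exceed the transcript expressed, so different genes compare only roughly. MT2A led in the short-term nontarget cells with 372 ± 20.6 CPM per kb (SD, n = 3). MT1E followed with 141 ± 4.23 CPM per kb and SLC39A7, the importer that releases zinc from the endoplasmic reticulum, with 129 ± 9.78 CPM per kb, and the libraries of MT1E and SLC39A7 overlapped. SLC39A1, an importer of the cell surface, had 54.4 ± 1.68 CPM per kb and SLC39A6 35.2 ± 1.25 CPM per kb. Next came SLC39A14 with 27.9 ± 0.152 CPM per kb, below every SLC39A6 library, and the lowest mean among the 26 tested genes was that of SLC30A3, 0.0593 CPM per kb. After long-term knockdown, SLC39A1 had 8.78 ± 0.742 CPM per kb and lay below MT1F, with 22.1 ± 6.29 CPM per kb, whereas in the short-term nontarget cells MT1F had 6.24 ± 1.77 CPM per kb.

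**Figure D1:**
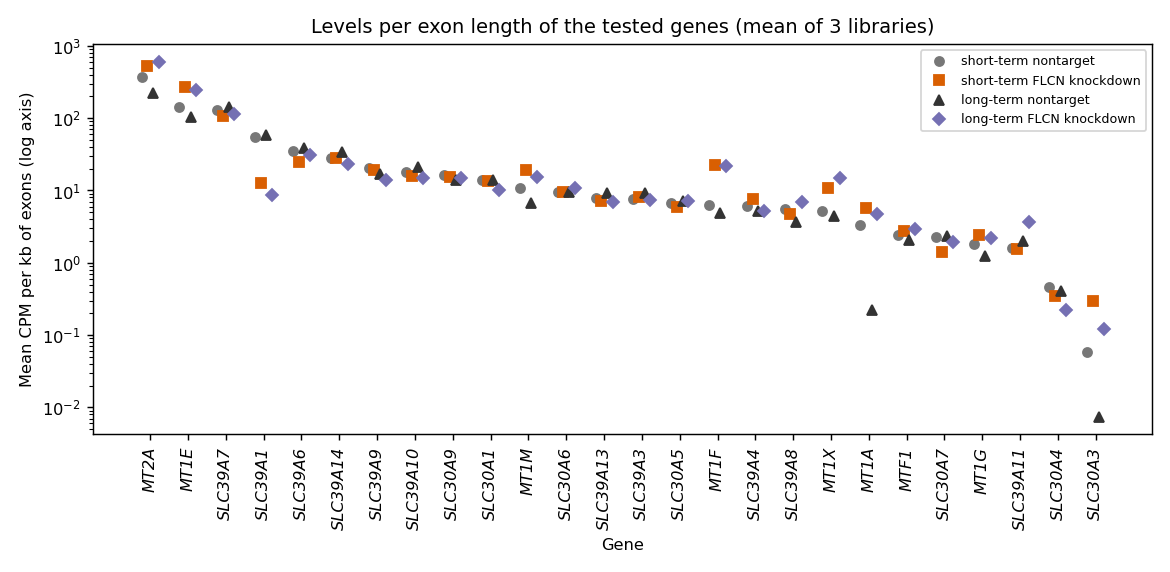
Mean level of the 26 tested genes in CPM per kb of exon on a log axis (3 libraries a group), with genes ordered by the short-term nontarget group and a marker for each group. MT2A lies highest in all 4 groups, SLC39A1 is lower in both knockdown groups (12.8 and 8.78 CPM per kb) than in the nontarget groups (54.4 and 58.3), and MT1A drops to 0.226 CPM per kb in long-term nontarget cells.

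All 9 metallothionein genes lie in a cluster on chromosome 16 (GRCh38), from MT2A at 56608199 to MT1X at 56684196. After short-term knockdown, 3 of the 7 tested genes rose and none fell, with a median log2 fold change of 0.81, while 5.62% of all genes tested rose and 4.71% fell. After long-term knockdown, 6 of 7 rose and none fell, with a median of 1.43, against 13.7% of all genes rising and 15.8% falling. The median over all genes was −0.0001 short-term and 0.001 long-term. None of the 7 fell at an unadjusted p below 0.05 or by DESeq2 in either comparison, and DESeq2 counted the same numbers of rises. At an unadjusted p below 0.05, 5 were higher short-term and 6 long-term. With no filter on low counts, MT2A (edgeR adjusted p = 6.59e-04) and MT1M (9.38e-04) passed short-term as well. By DESeq2 neither of these 2 passed short-term (adjusted p = 0.0603 and 0.0646). Without replicate 3 of every group, 4 rose short-term and 6 long-term, and none fell. The 40 tested genes nearest the cluster had median log2 fold changes of 0.04 short-term and −0.21 long-term. Metallothionein RNA made up 0.0649% to 0.0702% of all counts in short-term nontarget libraries, 0.0943% to 0.114% after short-term knockdown, 0.0329% to 0.0557% in long-term nontarget and 0.0927% to 0.139% after long-term knockdown, so the groups with knockdown lay above both groups without it.

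MT2A, the main metallothionein of most human cells, had 481, 510.3 and 457 CPM in the short-term nontarget libraries, 649, 658 and 714 CPM after short-term knockdown, 224, 280.3 and 365 CPM in long-term nontarget and 704, 630.1 and 1014 CPM after long-term knockdown. All 6 knockdown libraries lay above all 6 nontarget libraries. The long-term rise was 2.70-fold (log2 fold change 1.43, edgeR adjusted p = 1.09e-05, SE 0.172). The short-term difference was 1.39-fold (log2 fold change 0.48, SE 0.169) and missed the threshold, with an edgeR adjusted p of 0.0888. Without replicate 3 of every group this adjusted p was 0.00391, for a log2 fold change of 0.40.

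MT1E, the next most abundant, had 153, 147 and 144 CPM in short-term nontarget libraries and 253, 235 and 351 CPM after short-term knockdown, a rise of 1.89-fold (log2 fold change 0.92, edgeR adjusted p = 0.00497, SE 0.188). In long-term cells it had 81.1, 98.8 and 146 CPM without and 244, 226 and 301 CPM with knockdown, a rise of 2.36-fold (log2 fold change 1.24, edgeR adjusted p = 1.40e-04, SE 0.190). The knockdown libraries lay above the nontarget libraries of their time in both comparisons.

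MT1F had the largest short-term rise of the family. It had 9.16, 10.6 and 15.6 CPM in short-term nontarget libraries and 35.9, 36.3 and 55.6 CPM in short-term knockdown libraries, 3.61-fold higher (log2 fold change 1.85, edgeR adjusted p = 0.00166, SE 0.325). The long-term values were 6.57, 5.27 and 15.4 CPM without and 40.9, 30.4 and 54.1 CPM with knockdown, 4.52-fold higher (log2 fold change 2.18, edgeR adjusted p = 1.31e-04, SE 0.330). Replicate 3 had the highest level in each of the 4 groups, and yet no nontarget library reached the lowest knockdown library.

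MT1X had 9.70, 7.75 and 10.2 CPM in the short-term nontarget libraries, 16.2, 16.4 and 24.1 CPM after short-term knockdown, 8.44, 5.42 and 9.70 CPM in long-term nontarget and 23.5, 22.7 and 33.8 CPM after long-term knockdown. It rose 2.03-fold short-term (log2 fold change 1.02, edgeR adjusted p = 0.00688, SE 0.227) and 3.34-fold long-term (log2 fold change 1.74, edgeR adjusted p = 1.28e-05, SE 0.223). Of the 75-base stretches of its transcripts, 14.4% also occur in AC026461.1, which overlaps it, in MT1G or in the pseudogene MT1XP1 (0 counts for AC026461.1 and 2 for MT1XP1), and reads from those stretches cannot be placed by sequence alone.

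MT1M had 10.3, 10.2 and 10.5 CPM in short-term nontarget libraries, which hardly varied, and 14.6, 16.8 and 23.5 CPM after short-term knockdown. This difference (log2 fold change 0.81, SE 0.280) had an edgeR adjusted p of 0.0807. In long-term cells MT1M had 3.48, 6.19 and 9.57 CPM without and 14.0, 10.1 and 19.3 CPM with knockdown, a rise of 2.23-fold (log2 fold change 1.16, edgeR adjusted p = 0.00755, SE 0.298). The highest nontarget library lay just under the lowest knockdown library.

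MT1A was rare and is given in counts: 12, 8 and 7 in short-term nontarget libraries, 23, 14 and 10 after short-term knockdown, 2, 0 and 0 in long-term nontarget and 17, 8 and 15 after long-term knockdown. Over the long-term groups this was 40 counts against 2, 20.3 times as many after scaling by library size (95% interval 5.26 to 173, counting error only, edgeR adjusted p = 2.52e-04). The short-term difference (log2 fold change 0.77, SE 0.417) had an edgeR adjusted p of 0.291. MT1G was also rare, at 4 to 14 counts a library, and did not pass the test in either comparison, with log2 fold changes of 0.44 (SE 0.392, edgeR adjusted p = 0.561) short-term and 0.82 (SE 0.418, edgeR adjusted p = 0.161) long-term.

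Without knockdown, 2 of the 7 metallothioneins fell and none rose from short-term to long-term culture, against 4.38% of all genes falling and 3.17% rising. MT2A fell by 39.9% (log2 fold change −0.74, edgeR adjusted p = 0.0133, SE 0.170), and all 3 long-term libraries lay under all 3 short-term ones. This call was lost when 1 of these libraries was left out: short-term nontarget replicate 2 (0.0540 as edgeR's adjusted p) or long-term nontarget replicate 1 (0.0535) or 2 (0.0586). MT1A fell from 27 counts to 2, 14.4 times as many in the short-term libraries (95% counting interval 3.62 to 125, edgeR adjusted p = 0.00588). No metallothionein rose at an unadjusted p below 0.05 or by DESeq2, 4 fell at an unadjusted p below 0.05, and 5 fell in the test of the 8 libraries without replicate 3.

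With knockdown, none of the 7 metallothioneins passed the edgeR test between short-term and long-term culture, against 11.5% of all genes rising and 15.2% falling, and DESeq2 also called none. At an unadjusted p below 0.05, 1 of the 7 was higher, MT1X, which also passed without replicate 3 of every group (edgeR adjusted p = 0.0238) but not in the model of all libraries (log2 fold change 0.50, edgeR adjusted p = 0.0832, SE 0.206). With the replicate number as a block MT1X passed the test (edgeR adjusted p = 0.00743), though no label pairs these libraries and a pairing beyond replicate 3 was not shown. MT2A had a log2 fold change of 0.22 with a 95% interval of −0.14 to 0.57.

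The long-term knockdown effect minus the short-term one was tested as an interaction. It was 0.95 for MT2A (edgeR adjusted p = 0.0134, SE 0.239) and 3.33 for MT1A (edgeR adjusted p = 0.0170, SE 0.886), as log2 values. The MT1A call was lost without long-term nontarget replicate 2 (0.0580) or 3 (0.0638), and its fitted size depends on the prior count of 0.125, as 2 counts stand in the long-term nontarget group. Over the fits that left out 1 library, the MT1A interaction ran from 2.78 to 5.94. The other 5 metallothioneins had interactions of 0.32 to 0.72 that did not pass the test. MT1X passed with the replicate number as a block (edgeR adjusted p = 0.0216), and without replicate 3 of every group MT1X (0.0434) and MT1E (5.91e-04) passed and MT1A (0.0944) did not. Over all genes, 4.98% had a higher and 8.43% a lower log2 fold change in the long-term cells. Of the 26 genes, 4 were higher and 2 lower, or 5 and 2 without replicate 3.

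MTF1 (chromosome 1, 37809567 to 37859620) encodes the zinc-sensing factor itself. It had 19.4 ± 2.11 CPM in short-term nontarget, 22.1 ± 1.40 CPM in short-term knockdown, 16.8 ± 2.10 CPM in long-term nontarget and 23.3 ± 1.18 CPM in long-term knockdown libraries (SD, n = 3). Groups overlapped short-term but not long-term. It rose 1.39-fold after long-term knockdown (log2 fold change 0.48, edgeR adjusted p = 0.0142, SE 0.138), a call lost without long-term nontarget replicate 3 (0.0730) or long-term knockdown replicate 1 (0.0596). The short-term log2 fold change was 0.19 (SE 0.138, edgeR adjusted p = 0.450).

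Among the 7 tested exporters, 1 rose and 1 fell after short-term knockdown and 1 rose after long-term knockdown, against 5.62% rising and 4.71% falling short-term and 13.7% rising and 15.8% falling long-term over all genes. Their median log2 fold changes were −0.09 and 0.0007. In the 8 libraries without replicate 3, where SLC30A3 was not tested, none rose and 1 fell at each time (SLC30A7 short-term and SLC30A1 long-term). SLC30A7, which loads zinc into the Golgi, had 19.3, 19.6 and 18.4 CPM in short-term nontarget libraries and 13.5, 11.1 and 10.4 CPM after short-term knockdown, a fall of 38.3% (log2 fold change −0.70, edgeR adjusted p = 0.00921, SE 0.161). In long-term cells it had 22.6, 16.6 and 19.0 CPM without and 16.2, 18.5 and 14.4 CPM with knockdown, which overlap (log2 fold change −0.25, edgeR adjusted p = 0.257, SE 0.155). The interaction of 0.45 (SE 0.224) had an edgeR adjusted p of 0.212, so a difference between the effects at the 2 times was not shown.

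SLC30A3, a transporter of synaptic vesicles, rose from very low levels. It had 1, 3 and 3 counts in short-term nontarget libraries and 8, 12 and 14 after short-term knockdown (log2 fold change 2.23, edgeR adjusted p = 0.0412, SE 0.669). This call was lost in 8 of 12 fits that left out a library (adjusted p up to 0.180), those without any 1 short-term nontarget library, without short-term knockdown replicate 2 or 3, without long-term nontarget replicate 1 or 2 and without long-term knockdown replicate 2, and DESeq2 gave an adjusted p of 0.0959. The long-term counts were 1, 0 and 0 without and 2, 3 and 9 with knockdown, 14.2 times as many with knockdown (95% counting interval 2.16 to 600, edgeR adjusted p = 0.0303). Without long-term nontarget replicate 2 (0.0933) or 3 (0.102), or long-term knockdown replicate 3 (0.159), the long-term call was lost. The 40 nearest tested genes had median log2 fold changes of 0.28 short-term and 0.53 long-term.

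SLC30A1 is the zinc exporter of the cell surface and, like the metallothioneins, a target of MTF1. It had 69.0, 72.9 and 85.9 CPM in short-term nontarget libraries, 64.8, 60.8 and 92.7 CPM after short-term knockdown, 84.2, 53.7 and 92.4 CPM in long-term nontarget and 51.8, 53.6 and 61.7 CPM after long-term knockdown. The groups overlapped at both times. The log2 fold changes were −0.07 (SE 0.185, edgeR adjusted p = 0.887, 95% interval −0.46 to 0.33) short-term and −0.47 (SE 0.186, edgeR adjusted p = 0.0705) long-term. With the replicate number as a block, though no label pairs the libraries, the long-term value was −0.45 and passed the test (edgeR adjusted p = 0.00561). Without the block, the long-term interval ran from −0.86 to −0.07.

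The exporters of the early secretory pathway, SLC30A5 and SLC30A6, which work as a complex, and SLC30A9 of the mitochondria had log2 fold changes of −0.17 to 0.17 in the knockdown comparisons and did not pass the test. SLC30A4, an endosomal exporter, had 39 counts after long-term knockdown against 72 in long-term nontarget libraries (log2 fold change −0.85, edgeR adjusted p = 0.0657, SE 0.336). Between short-term and long-term culture, no exporter passed the test without knockdown, by edgeR or by DESeq2, and 1, SLC30A9, was lower at an unadjusted p below 0.05 (over all genes, 3.17% rose and 4.38% fell). With knockdown 1 of 7 rose and none fell, against 11.5% and 15.2% of all genes, and 2 rose without replicate 3. SLC30A7 was 1.39-fold higher in long-term culture (log2 fold change 0.48, edgeR adjusted p = 0.0379, SE 0.163). That call was lost in 6 of 12 fits that left out a library (adjusted p up to 0.168), those without short-term nontarget replicate 1 or 2, short-term knockdown replicate 2 or 3, or long-term knockdown replicate 1 or 2, and DESeq2 gave 0.0627.

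**Figure D2:**
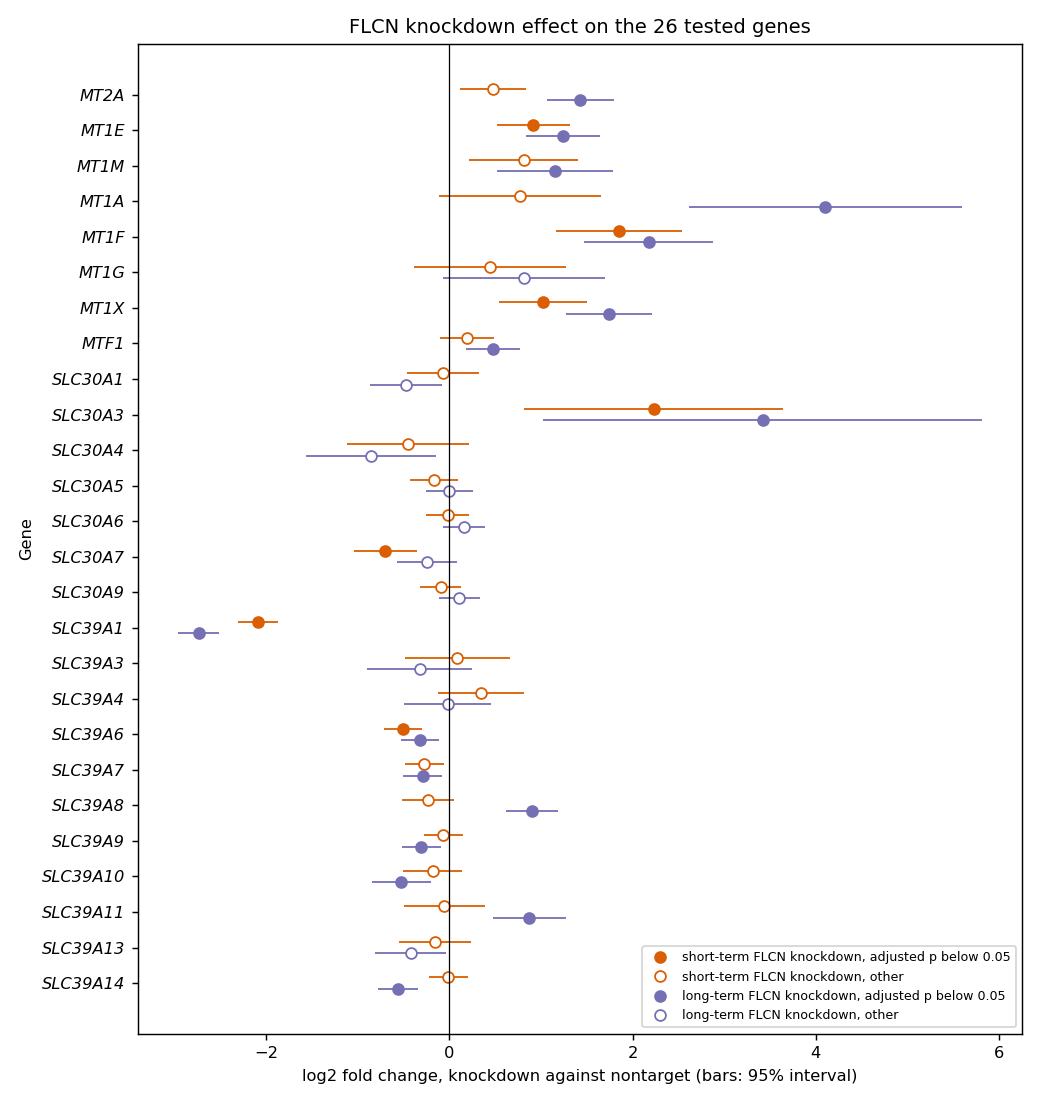
Log2 fold change of knockdown against nontarget cells for the 26 tested genes (rows), short-term and long-term, with 95% intervals from the edgeR fit. Filled points passed an adjusted p of 0.05. All 7 metallothioneins lie to the right of 0 at both times, and SLC39A1 lies farthest left, at −2.09 and −2.73.

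Among the 11 tested importers, 2 fell and none rose after short-term knockdown, and 6 fell and 2 rose after long-term knockdown. The falls were 18.2% and 54.5% of the tested importers, against 4.71% and 15.8% of all genes. The long-term rises were 18.2%, near the 13.7% of all genes, and short-term 5.62% of all genes rose. The importers had median log2 fold changes of −0.15 and −0.32. In the 8 libraries without replicate 3, 3 fell and none rose short-term, and 8 fell and 2 rose long-term. No importer rose short-term at an unadjusted p below 0.05 or by DESeq2. SLC39A1 (chromosome 1, 153959099 to 153968184), which brings zinc in across the cell surface of most cell types, changed more than any other of the 26 genes relative to its error.

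SLC39A1 had 188, 187 and 178 CPM in short-term nontarget libraries, 45.7, 41.1 and 43.2 CPM after short-term knockdown, 179, 211 and 203 CPM in long-term nontarget and 27.4, 29.5 and 32.4 CPM after long-term knockdown. No knockdown library came near a nontarget library. The level fell by 76.5% short-term (log2 fold change −2.09, edgeR adjusted p = 1.03e-09, SE 0.103) and by 85.0% long-term (log2 fold change −2.73, edgeR adjusted p = 1.51e-11, SE 0.107). It fell further from short-term to long-term knockdown, by 31.5% (log2 fold change −0.55, edgeR adjusted p = 0.00106, SE 0.108), and the interaction was −0.65 (SE 0.144, edgeR adjusted p = 0.00536). Without knockdown, long culture gave a log2 fold change of 0.10 (SE 0.0961, edgeR adjusted p = 0.652).

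The 10 tested genes nearest SLC39A1 had short-term log2 fold changes of −0.61 to 0.21, with edgeR adjusted p of 0.130 or more. Long-term, RPS27, GATAD2B and C1orf43 rose by 0.29 to 0.49 and INTS3 fell by 0.44 on the log2 scale. Over the 40 nearest, the medians were 0.14 short-term and 0.08 long-term. CRTC2 and JTB, the nearest that share no exon with it, had 0.19 and 0.21 short-term and 0.05 and 0.23 long-term, with edgeR adjusted p of 0.173 or more. On the opposite strand CREB3L4 overlaps 280 of its exon bases and had log2 fold changes of −0.61 (edgeR adjusted p = 0.130) short-term and 0.29 (edgeR adjusted p = 0.386) long-term. On the same strand, AL358472.7 covers 60.8% of its exon bases. The count table held no entry for that gene, so the counts of SLC39A1 may include reads from either.

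**Figure D3:**
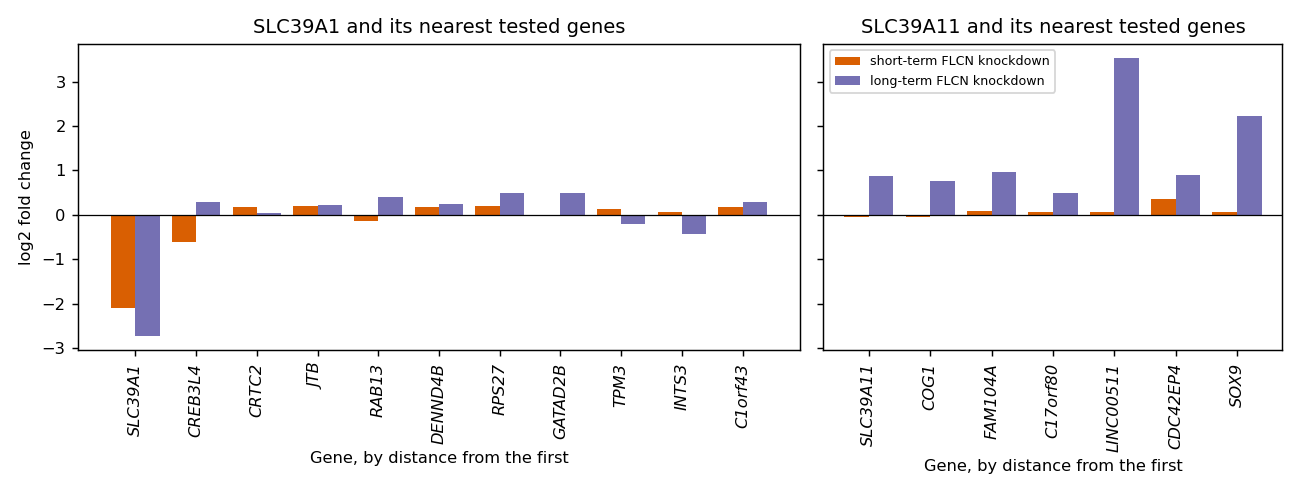
Log2 fold change after short-term and long-term knockdown for SLC39A1 and its nearest tested genes (left) and for SLC39A11 and its nearest tested genes (right), ordered by distance. SLC39A1 stands at −2.09 and −2.73 among neighbours that lie between −0.61 and 0.49, and SLC39A11 (0.88 long-term) stands among neighbours that were also higher long-term, from 0.50 to 3.54.

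SLC39A6, which works with SLC39A10 at the cell surface, also fell at both times. It had 124, 131 and 133 CPM in short-term nontarget libraries against 93.8, 92.0 and 88.1 CPM after short-term knockdown, a fall of 29.5% (log2 fold change −0.50, edgeR adjusted p = 0.00284, SE 0.0989). The long-term fall was 19.7% (log2 fold change −0.32, edgeR adjusted p = 0.0206, SE 0.0978) and was lost without long-term nontarget replicate 1 (0.0872) or long-term knockdown replicate 3 (0.0827).

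The other long-term falls were smaller than 1.5-fold. SLC39A14, which also carries iron and manganese, had 193, 195 and 193 CPM in short-term nontarget libraries, 194, 169.6 and 213 CPM after short-term knockdown, 241, 217 and 245 CPM in long-term nontarget and 162, 144 and 171 CPM after long-term knockdown. It fell by 32.1% long-term (log2 fold change −0.56, edgeR adjusted p = 4.33e-04, SE 0.102) and had a log2 fold change of −0.01 short-term, and the interaction of −0.55 passed the test (SE 0.144, edgeR adjusted p = 0.0159). SLC39A10 fell by 30.4% (edgeR adjusted p = 0.0158), SLC39A9 of the Golgi by 19.1% (edgeR adjusted p = 0.0280) and SLC39A7 by 18.2% (edgeR adjusted p = 0.0391). The SLC39A10 call was lost without long-term nontarget replicate 1 (0.0817) or long-term knockdown replicate 2 (0.0561), and the SLC39A9 call without long-term nontarget replicate 1 (0.0756) or long-term knockdown replicate 2 (0.0586) or 3 (0.101). The SLC39A7 call was lost without short-term nontarget replicate 1, long-term nontarget replicate 2 or 3, or long-term knockdown replicate 1 or 2, at adjusted p up to 0.151. SLC39A9 and SLC39A7 overlap ERH and RXRB on the opposite strand, over 373 and 244 exon bases.

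SLC39A8 and SLC39A11 rose in long-term knockdown cells. SLC39A8, which takes up zinc, manganese and cadmium, had 38.0, 34.9 and 34.2 CPM in short-term nontarget libraries, 33.3, 26.3 and 31.5 CPM after short-term knockdown, 26.3, 20.3 and 24.7 CPM in long-term nontarget and 48.9, 39.8 and 45.1 CPM after long-term knockdown. All 3 long-term knockdown libraries lay above the 6 short-term libraries, and all 3 long-term nontarget libraries lay below them, by the narrowest of margins between long-term nontarget replicate 1 and short-term knockdown replicate 2. The long-term knockdown rise was 1.87-fold (log2 fold change 0.91, edgeR adjusted p = 5.68e-05, SE 0.134), against a short-term log2 fold change of −0.23 (SE 0.134, edgeR adjusted p = 0.321), and the interaction was 1.14 (SE 0.189, edgeR adjusted p = 4.35e-04).

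Long culture moved SLC39A8 in opposite directions with and without knockdown. It fell by 33.4% without knockdown (log2 fold change −0.59, edgeR adjusted p = 0.0114, SE 0.135), a call lost without short-term nontarget replicate 1 (0.0661) or long-term nontarget replicate 2 (0.0669). With knockdown it rose 1.47-fold (log2 fold change 0.55, edgeR adjusted p = 0.00454, SE 0.132). The 40 tested genes nearest SLC39A8 had medians of 0.03 without and 0.09 with knockdown over the same span of culture.

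SLC39A11 (chromosome 17, 72645949 to 73092712), an importer of intracellular membranes, had 10.8, 8.81 and 7.54 CPM in short-term nontarget libraries, 9.49, 7.90 and 8.85 CPM after short-term knockdown, 7.77, 13.9 and 12.03 CPM in long-term nontarget and 20.8, 21.1 and 19.7 CPM after long-term knockdown. The long-term knockdown libraries lay above all 9 others. It rose 1.83-fold after long-term knockdown (log2 fold change 0.88, edgeR adjusted p = 0.00172, SE 0.187) and 2.34-fold from short-term to long-term knockdown (log2 fold change 1.23, edgeR adjusted p = 1.37e-04, SE 0.194). The short-term knockdown log2 fold change was −0.05 (SE 0.209, edgeR adjusted p = 0.922), and the interaction was 0.93 (SE 0.281, edgeR adjusted p = 0.0356). The interaction call was lost in 6 of 12 fits that left out a library (adjusted p up to 0.121), those without short-term nontarget replicate 1 or 2, short-term knockdown replicate 2, long-term nontarget replicate 1, or long-term knockdown replicate 1 or 2.

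Genes around SLC39A11 moved with it. The 40 nearest tested genes had a median log2 fold change of 0.65 after long-term and 0.06 after short-term knockdown. The 6 nearest, named after their values were seen, were COG1 (0.76), FAM104A (0.96), C17orf80 (0.50), LINC00511 (3.54), CDC42EP4 (0.89) and SOX9 (2.23), all with edgeR adjusted p of 0.0169 or less long-term. Short-term these 6 lay between −0.04 and 0.35 and did not pass the test. Their part in the result at SLC39A11 was not tested.

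In the model of all 12 libraries, SLC39A3, SLC39A4 and SLC39A13 passed the test in neither knockdown comparison. SLC39A4, the intestinal zinc importer whose loss causes acrodermatitis enteropathica, had 20.1 to 47.1 CPM, SLC39A3 25.1 to 53.4 CPM and SLC39A13 25.8 to 50.8 CPM. In all 3 genes, replicate 3 had the highest level in short-term knockdown, long-term nontarget and long-term knockdown cells. SLC39A13 had a long-term log2 fold change of −0.42 (SE 0.184, edgeR adjusted p = 0.0990), which passed with the replicate number as a block (edgeR adjusted p = 0.00712). Without replicate 3 of every group, SLC39A3 (log2 fold change −0.46, edgeR adjusted p = 0.0154) and SLC39A13 (−0.49, 0.00446) passed long-term and SLC39A4 did not.

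Between short-term and long-term culture with knockdown, 3 importers rose (SLC39A6, SLC39A8 and SLC39A11) and 2 fell (SLC39A1 and SLC39A9). These were 27.3% and 18.2% of the 11 tested importers, against 11.5% and 15.2% of all genes. DESeq2 called 3 higher and 3 lower, and without replicate 3 the counts were 3 and 4. Without knockdown, 1 of 11 importers fell (SLC39A8) and none rose, against 4.38% and 3.17% of all genes. At an unadjusted p below 0.05, 2 were lower and 1 higher, and without replicate 3 of every group 2 fell and none rose. In long culture with knockdown, SLC39A6 rose 1.24-fold (edgeR adjusted p = 0.0252). This call was lost without any 1 of the 3 short-term knockdown libraries or long-term knockdown replicate 1 or 2 (adjusted p up to 0.121). SLC39A9 fell by 28.8% with knockdown (edgeR adjusted p = 0.00139), and its 40 nearest tested genes had a median log2 fold change of −0.39 there. Over all 26 genes, 6 passed in long culture with knockdown (15.4% higher and 7.69% lower, against the same 11.5% and 15.2%). With the replicate number as a block, though no label pairs the libraries, 11 passed. The added genes were MT1X, SLC30A1, SLC30A3, SLC39A4 and SLC39A14. Without replicate 3 of every group the count was 10.

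Over all 26 genes, 4 rose and 3 fell after short-term knockdown, and 10 rose and 6 fell after long-term knockdown. The shares were 15.4% rising and 11.5% falling short-term (5.62% and 4.71% over all genes) and 38.5% and 23.1% long-term (13.7% and 15.8% over all genes). Without replicate 3 of every group the counts were 4 and 4 short-term and 9 and 9 long-term. From short-term to long-term culture without knockdown, none rose and 3 (11.5%) fell, against 3.17% and 4.38% of all genes, or none and 7 without replicate 3. At an unadjusted p below 0.05, 1 of the 26 was higher there, and DESeq2 called none higher.

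Other genes of metal handling were read from lists of known function, whose counts stand against 5.62% of all genes rising and 4.71% falling short-term and 13.7% and 15.8% long-term, with all-gene medians of −0.0001 and 0.001. Of 7 tested genes that sense, carry or deliver zinc outside the families, none passed the edgeR test short-term, none had an unadjusted p below 0.05 and DESeq2 called none. After long-term knockdown 1 rose, GPR39, a receptor activated by extracellular zinc (3.26-fold, log2 fold change 1.71, edgeR adjusted p = 1.53e-05, SE 0.221). Of 8 metal-responsive and redox genes, 3 rose and 1 fell short-term, and 3 rose and 2 fell long-term, with median log2 fold changes of 0.10 and −0.02. HMOX1, which breaks down heme, rose 3.35-fold short-term (log2 fold change 1.75, edgeR adjusted p = 2.51e-06, SE 0.161) and 2.41-fold long-term (log2 fold change 1.27, edgeR adjusted p = 9.83e-06, SE 0.159). NQO1 and GCLM also rose at both times (by 0.34 to 0.65 on the log2 scale), whereas TXNRD1 fell at both times and SLC7A11, the cystine importer, fell long-term (log2 fold change −1.01, edgeR adjusted p = 0.00532, SE 0.248).

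Metallothionein genes also respond to heat shock and to glucocorticoids. Of 6 heat shock genes none passed the edgeR or DESeq2 test of all libraries at either time, and 1, DNAJB1, was lower at an unadjusted p below 0.05 both times. Without replicate 3 of every group, 1 of the 6 fell at each time by edgeR. Of 7 tested genes of the glucocorticoid response, 1 rose (SGK1, log2 fold change 0.96) and 1 fell (FKBP5, −0.45) short-term. Long-term 4 rose and none fell by edgeR or DESeq2, and at an unadjusted p below 0.05 the counts were 6 and 0. The list's medians were 0.19 short-term and 0.64 long-term. The 4 were TSC22D3 (log2 fold change 1.40), SGK1 (0.95), the receptor gene NR3C1 (0.64) and FKBP5 (0.37). Of 17 genes of copper and iron handling, 2 rose and 3 fell short-term and 1 rose and 1 fell long-term, with medians of −0.02 and 0.07. The long-term counts were smaller shares than those over all genes. FTH1, the ferritin heavy chain, rose 3.45-fold short-term (log2 fold change 1.79, edgeR adjusted p = 1.12e-07, SE 0.123) and 1.70-fold long-term (log2 fold change 0.77, edgeR adjusted p = 1.05e-04, SE 0.120), and TFRC, the transferrin receptor, fell at both times (log2 fold changes −0.44 and −0.41). GCLM, DNAJB1, FKBP5 and TFRC stayed under 1.5-fold and are named after their values were seen.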

How the data were processed

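RNA of HK2 cells was sequenced in 12 libraries. According to the supplementary methods and the submitters' processing notes, the authors made TruSeq RNA v2 libraries, sequenced them on a MiSeq, trimmed with fastp, mapped with STAR to GRCh38 and counted reads per gene with featureCounts. Versions, annotation release and strand setting are not given in the sources used here, and without strand reads of overlapping genes cannot be told apart. The deposited values used are the authors' raw counts (unit: count), the same in the table and in the per-library files (0 values differed). The deposited normalized columns (unit: score, normalized counts) were not analysed.

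IDs were matched to GENCODE release 29 (55619 of 58288 with the same version, all 34 genes among them). The model was fitted to the counts with edgeR 4.0.16 (R 4.3.3): filterByExpr (13959 genes, 99.8% of counts), TMM, a robust glmQLFit of all libraries with a term per group and prior count 0.125, with two-sided p adjusted by Benjamini-Hochberg. SE is the size of the log2 fold change divided by the square root of F. CPM per kb divides by the union of exons. The biological coefficient of variation was 12%, and replicates differed by 2.07 to 11.9 chi-square units per degree of freedom, so at high counts spread between replicates limits precision. In bulk RNA, fewer cells expressing a gene and less RNA per cell cannot be told apart. The fit was also run on simulated counts with the same spread for every gene and no shared deviation of replicates. That setting differs from these data, and no conclusion rests on it.

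Same-numbered libraries deviated together, by correlation over genes, between the long-term groups (0.123 to 0.458) and between the knockdown groups (0.223 to 0.455). Short-term knockdown and long-term nontarget libraries, which share neither knockdown nor time, gave 0.150 to 0.467. Replicate 3 had the highest value each time. Long-term nontarget replicate 1 correlated with long-term knockdown replicate 2 (0.231) more than long-term nontarget replicate 2 did (0.123). No label pairs the libraries, and a pairing beyond replicate 3 was not shown. Same-numbered libraries did not deviate together between the short-term groups (0.0172 to 0.111) or the nontarget groups (−0.034 to 0.0767). The genes and lists were chosen with earlier results of these data known. Values are given per library for genes with an adjusted p below 0.05 and a fold of at least 1.5 in a pairwise comparison, and for SLC39A6, SLC39A14, SLC30A1 and the untested SLC30A2 beyond that rule. The alternatives were RLE factors, DESeq2 1.42.0, no filter, a mean of at least 10 CPM, the replicate block, only the groups compared, stricter limits, each library left out and, chosen after seeing the data, replicate 3 of every group left out.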

Additional observations from a re-analysis of the deposited data

Results flagged for a closer look

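For 6 genes the effect of FLCN knockdown differed between long-term and short-term cells by the edgeR interaction test, given here as the long-term minus the short-term log2 fold change. Of the 26 tested, 4 (15.4%) were higher and 2 (7.69%) lower, against 4.98% and 8.43% of all genes, so the share of lower values was near that over all genes. The difference was positive for MT2A (0.95, adjusted p = 0.0134), MT1A (3.33, adjusted p = 0.0170), SLC39A8 (1.14, adjusted p = 4.35e-04) and SLC39A11 (0.93, adjusted p = 0.0356). It was negative for SLC39A1 (−0.65, adjusted p = 0.00536) and SLC39A14 (−0.55, adjusted p = 0.0159). For SLC39A1 the level fell at both times and further long-term. For MT2A, MT1A and SLC39A8 the long-term nontarget level was itself lower than the short-term nontarget level, and the long-term knockdown level of MT2A and MT1A gave no call against the short-term knockdown level (log2 fold changes 0.22 and −0.28).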

How the results depend on the processing

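Of 28 values called for the genes that met the rule for values per library (not SLC39A6, SLC39A14 and SLC30A1), with the limits for a call unchanged, 0 changed sign under another scaling, tool, filter, block or set of libraries, 21 kept their call wherever they could be fitted and 7 lost it without some 1 library, 3 of these also elsewhere. With the replicate block, the count of genes called in long culture without knockdown went from 3 to 6 and with knockdown from 6 to 11; it was 10 short-term and 18 long-term for the knockdown, against 7 and 16. The short-term groups share only numbers, and MT2A there passed with the block (adjusted p = 0.0139). Without replicate 3 of every group, an alternative chosen after seeing the data, the counts of long culture were 7 without and 10 with knockdown. Without a filter on low counts, 5 were called in long culture without knockdown. At an adjusted p below 0.01 the counts were 10 for the long-term knockdown, 1 for long culture without knockdown and 2 for the interaction. At a fold of at least 1.5 they were 10 for the long-term knockdown and 1 for long culture with knockdown. Leaving out each library gave 6 to 9 genes short-term, 13 to 17 long-term, 1 to 4 for long culture without and 4 to 9 with knockdown, and 5 or 6 for the interaction; the count of 1 came without long-term nontarget replicate 2. The cause of these shifts was not tested. Genes under a mean of 10 CPM, such as MT1A and SLC30A3, gave no value under that filter. Depth limits the 8 untested genes and those near 1 CPM.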

Other observations

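MT1L, a transcribed pseudogene of the metallothionein cluster that the symbol rule takes no account of because it is not protein-coding, was chosen here after its values were seen. It had 42, 42 and 31 counts in short-term nontarget libraries and 80, 83 and 64 after short-term knockdown. In long-term nontarget libraries it had 0 counts in all 3, and after long-term knockdown 0, 1 and 1. The level in short-term nontarget libraries was at least 40.95-fold higher than in long-term nontarget libraries, against a floor of 3 counts over the group. This bound takes the short-term counts as exact and leaves out the spread between replicates. Between short-term and long-term knockdown the counts were 227 and 2, 119 times as many short-term (95% counting interval 32.5 to 988). It was near 0 in all long-term libraries, whereas its neighbour MT1E kept 108.7 CPM or more in every group on average. The other pseudogenes and relatives outside the rule (MT1CP, MT1DP, MT1HL1, MT1IP, MT1JP, MT1P1, MT1P3, MT1XP1, MT3 and MT4) had at most 2 counts each over the 12 libraries, and MT2P1 had 41.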
